A study of Homo sapiens with 9 samples.

Results

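The 10 genes of the neuronal cytoskeleton followed here were STMN2, STMN3, TUBB3, MAP2, MAPT, GAP43, DCX, INA, NEFL and NEFM. They were chosen as a set for their known roles, not for their values, although earlier results of these data were known when the set was made. Of the 10 genes, 8 were found in the table of 17518 genes with normalized counts, and all 8 passed the filter on low values. NEFL and NEFM were found only in the table of 57820 genes with FPKM (fragments scaled to transcript length and library size). The cells were COR-L279, an established human small cell lung cancer line, labelled as wild type and as SCLC-N, the subtype named for the transcription factor NEUROD1. All were cultured in RPMI medium with heat-inactivated fetal bovine serum, and all were exposed for 24 h. The control group received DMSO, the vehicle, and the treated groups received JQ1 at 0.5 µM or at 1.5 µM. JQ1 is a small molecule that displaces BET bromodomain proteins from acetylated histones. Each group held 3 libraries of total RNA, called biological replicates, so there were 9 libraries from 1 cell line. Nothing in the labels says that they came from separate cultures, and p-values measure the spread between these libraries.

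Neurons build axons and dendrites on microtubules, which are polymers of alpha- and beta-tubulin. Stathmins bind free tubulin dimers and promote disassembly, whereas MAP2, tau (MAPT) and doublecortin (DCX) bind the polymer and stabilise or bundle it. Neurofilaments and alpha-internexin (INA) are the intermediate filaments of neurons, and GAP43 is a membrane-attached phosphoprotein of the growth cone. Small cell lung cancer is a neuroendocrine tumour that expresses many neuronal genes.

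Promoters are shown for 3 genes with a single start in the table, 1 for each kind of response described later: INA, which rose with JQ1, GAP43, which fell, and STMN3, which did not pass the test at either dose. Each is the 250 bases before the start, 5′ to 3′ on the gene's strand, from RefSeq on GRCh38.p14, which is a later build than the hg19 used for the deposited values. The bases that follow the start were found in an annotated GENCODE transcript for GAP43 and STMN3, but not for INA. Capitals mark matches to the searched motifs GGGCGG (a GC box, written CCGCCC where it lies on the other strand), CAGATG and CAGCTG (E-boxes), and GGACAGC (the second part of the element bound by REST).
INA promoter: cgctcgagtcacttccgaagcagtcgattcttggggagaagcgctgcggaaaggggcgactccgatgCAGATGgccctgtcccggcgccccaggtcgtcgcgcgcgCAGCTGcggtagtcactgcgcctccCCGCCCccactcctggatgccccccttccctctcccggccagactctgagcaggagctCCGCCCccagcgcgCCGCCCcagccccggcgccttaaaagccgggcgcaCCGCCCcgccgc
GAP43 promoter: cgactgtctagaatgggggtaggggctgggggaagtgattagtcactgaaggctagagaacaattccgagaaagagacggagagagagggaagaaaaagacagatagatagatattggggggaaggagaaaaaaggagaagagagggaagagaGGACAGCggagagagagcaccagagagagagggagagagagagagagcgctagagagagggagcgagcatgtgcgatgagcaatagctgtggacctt
STMN3 promoter: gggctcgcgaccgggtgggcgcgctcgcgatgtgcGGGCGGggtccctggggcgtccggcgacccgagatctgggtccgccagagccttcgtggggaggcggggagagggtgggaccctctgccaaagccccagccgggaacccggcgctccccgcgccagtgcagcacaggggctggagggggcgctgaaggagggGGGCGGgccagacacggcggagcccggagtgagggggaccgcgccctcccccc
The INA window lies at chr10:103276888-103277137 on the plus strand, the GAP43 window at chr3:115623260-115623509 on the plus strand, and the STMN3 window at chr20:63652767-63653016 on the minus strand. The INA window had a GC content of 72.8% and held 4 matches to GGGCGG on the reverse strand, beginning 119, 61, 47 and 12 bases before the start. It also held CAGATG 183 bases and CAGCTG 144 bases before the start. The STMN3 window had a GC content of 78% and 2 matches to GGGCGG, 215 and 53 bases before the start. The GAP43 window differed from both, with a GC content of 51.6%, no GC box and 1 match to GGACAGC 97 bases before the start. Across all 35116 windows of this length the median GC content was 58%.

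In all, 6 of the 10 genes matched the promoter table, with 11 windows among them. STMN2, MAPT, NEFL and NEFM had no entry. Both strands were searched for 7 motifs. GGGCGG was found in 42.6% of all windows, CAGCTG in 14%, CAGATG in 12.2%, the TATA motif TATAAA in 10.7%, GGACAGC in 4.76%, the cyclic AMP response element TGACGTCA in 1.65%, and TTCAGCACC, the first part of the REST element, in 0.288%. One TUBB3 window held 3 matches to GGGCGG, 1 MAP2 window held CAGATG 11 bases before its start, and 1 DCX window held TATAAA 190 bases before its start. Neither TGACGTCA nor TTCAGCACC was found in the windows of these 6 genes. A match is a description of the letters and does not show binding.

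JQ1 changed a large share of the transcriptome. Reads assigned to genes numbered from 60721187 to 88482001 per library. HEXIM1, a gene known to rise when BET proteins are inhibited, had 1125 ± 21.7, 5487 ± 75.2 and 6976 ± 144 normalized counts (mean ± SD, n = 3) in DMSO, 0.5 µM and 1.5 µM. All 10 neuroendocrine markers looked for had a mean of at least 0.5 FPKM in each group, and their summed level was 3960 to 4092 FPKM in DMSO, 4202 to 4831 at 0.5 µM and 4259 to 4325 at 1.5 µM. Of 10 markers each, 1 of leukocytes, 2 of fibroblasts and 5 of glia reached 0.5 FPKM in DMSO, as did 2 of the 9 endothelial markers matched, and PTPRC, CD3E, VWF and TEK were listed at 0 there. The summed glial markers were 30.01 to 31.11 FPKM in DMSO, 20.81 to 21.85 at 0.5 µM and 20.18 to 20.43 at 1.5 µM. Leukocyte markers summed to 1.09 to 1.39, 0.42 to 0.98 and 0.66 to 0.76 FPKM, and fibroblast markers to 74.4 to 76.35, 58.25 to 73.04 and 54.38 to 63.76 FPKM, in the same order. Most of the fibroblast sum was THY1, also a neuronal surface protein (58.3, 58.3 and 50 FPKM), and COL1A2 (15.2, 5.38 and 4.88 FPKM). Lung epithelial markers, of which 4 of 10 reached 0.5 FPKM in DMSO, summed to 233.84 to 239.63, 139.24 to 169.28 and 126.94 to 130.33 FPKM. That sum was mostly EPCAM, at 220.02, 137 and 117 FPKM, which passed as lower at both doses. So did TP63, at 2.27, 0.117 and 0.107 FPKM, and AGER, at 3.58, 1.23 and 1.00 FPKM. CDH1, another epithelial marker, measured 10.77, 10.99 and 10.64 FPKM and did not pass the test at either dose. The part of these markers in the results was not tested.

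Some libraries stood apart from their group. The 0.5 µM replicate 2 was the highest of its group for 3 of the 8 genes (STMN2, GAP43 and INA), the lowest for 4 (STMN3, TUBB3, MAPT and DCX), and between the others for MAP2. Its value was 0.8554 (DCX) to 1.234 (STMN2) times the mean of the other 2 libraries. Any library of a group of 3 is often the highest or lowest, and the share over all genes was not counted. Besides, 3 libraries, 0.5 µM replicate 3 and 1.5 µM replicates 1 and 2, held 1476 to 2071 normalized counts of the noncoding RNA H19, while the DMSO libraries held 63.8 to 82.8 and the remaining JQ1 libraries 1.04 to 8.22. In FPKM, H19 was 9.74 to 14.21 in these 3 libraries and 0.01 to 0.1 in the remaining JQ1 libraries. DMSO replicates 1 and 2 held 0.55 and 0.52 FPKM, but DMSO replicate 3 held 6.8 FPKM. The 3 libraries with high H19 counts shared high SLC2A3 as well, and some fibroblast markers. COL3A1 was 3.05, 2.90 and 2.74 FPKM in them against 0.08 to 0.5 FPKM in the other 6 libraries, LUM was 4, 2.92 and 2.91 FPKM against 0.02 to 0.51, and DCN was 0.41, 0.41 and 0.40 FPKM against 0 to 0.02. YAP1 was 0.59, 0.48 and 0.52 FPKM against 0.03 to 0.07. The fibroblast collagen COL1A1 did not follow them, at 0.24 to 0.48 FPKM over all 9 libraries. Without these 3 libraries 4 of the 8 genes were higher and 3 lower at 0.5 µM. At 1.5 µM only 1 library is then left, so values without the 3 are not a replicated check of that group. Single values without them are given for MAPT, GAP43 and REST. For DCX and INA, whose calls between the doses also changed, none is given.

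Of the 8 tested genes, 4 rose at 0.5 µM (STMN2, INA, TUBB3 and MAP2), 3 fell (MAPT, GAP43 and DCX) and 1 did not pass the test (STMN3). The same 8 genes had the same calls at 1.5 µM, a comparison that shares its DMSO libraries with the first. In normalized counts, groups did not overlap for 8 of 8 genes at either dose. A call here means a Benjamini-Hochberg adjusted p under 0.05 in limma over all 17514 genes tested. By that rule 70% of all genes were called at 0.5 µM, 35.3% as higher and 34.7% as lower, and groups did not overlap for 72.6%. At 1.5 µM, 73.1% were called, 36.9% as higher and 36.2% as lower, and groups did not overlap for 81.7%. The number of calls among these genes is therefore near the background, and what follows describes the sizes. The median log2 fold change of the 8 genes was 0.19 at 0.5 µM and 0.20 at 1.5 µM, against -0.01 and -0.003 over all genes tested. As these are bulk samples, fewer cells of a type and less RNA per cell cannot be told apart.

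**Figure D1:**
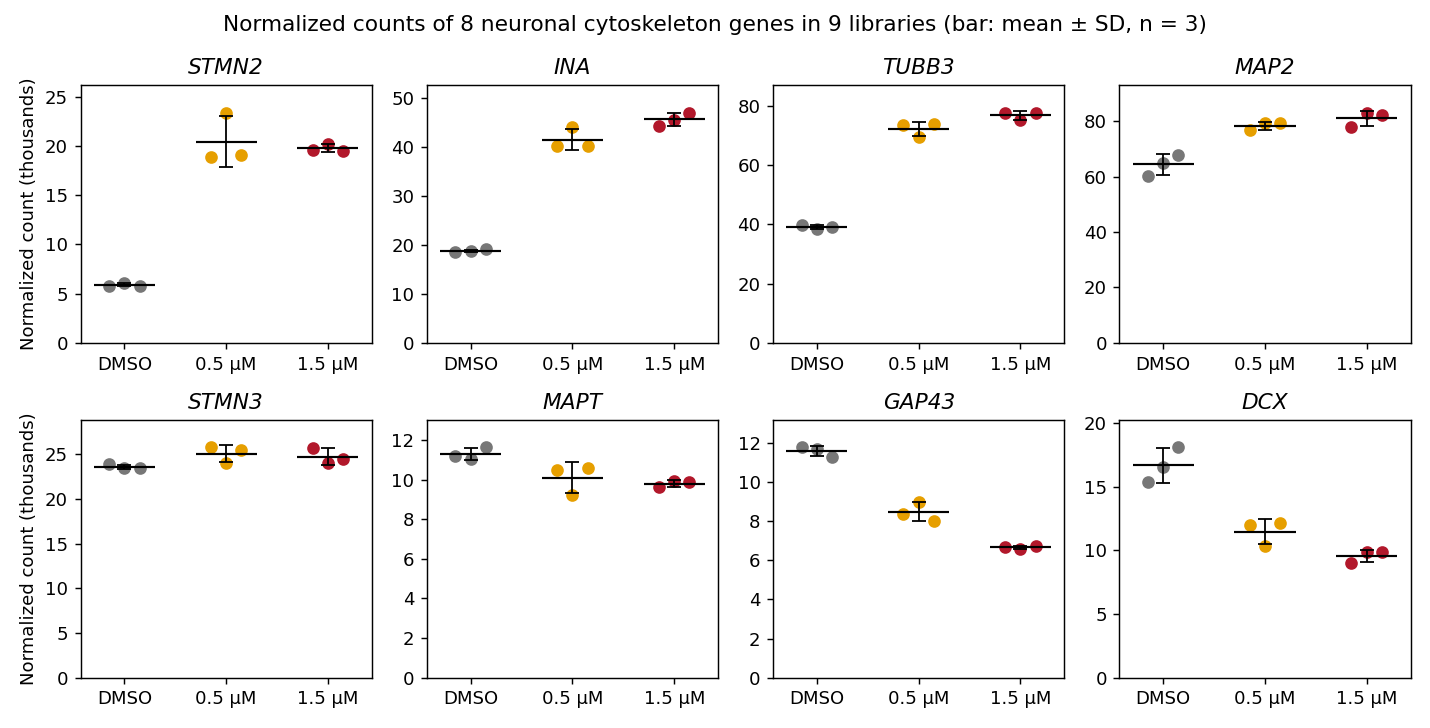
Normalized counts (vertical axes, from 0, in the units given on the axis) of the 8 tested genes in each of the 9 libraries, by group. Points are libraries in the order of their replicate numbers, the long line is the mean and the bar its SD (n = 3). STMN2, INA, TUBB3 and MAP2 lie higher in both JQ1 groups than in DMSO, MAPT, GAP43 and DCX lie lower, and STMN3 lies within a narrow range.

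STMN2 (ENSG00000104435.9), a stathmin of growth cones that destabilises microtubules and has a role in axon regrowth, rose more than any other of the genes. Its normalized counts were 5816, 6071 and 5803 in DMSO replicates 1 to 3, 18847, 23371 and 19044 at 0.5 µM, and 19563, 20222 and 19514 at 1.5 µM. All 6 JQ1 libraries were above all DMSO libraries, and the 0.5 µM replicate 2 was the highest. The log2 fold change was 1.79 ± 0.07 (SE) at 0.5 µM, a 3.46-fold rise (adjusted p = 8.54e-09, limma), and 1.75 ± 0.07 at 1.5 µM, a 3.35-fold rise (adjusted p = 5.01e-09). Among all genes tested, 203 had a higher log2 fold change at 0.5 µM and 351 at 1.5 µM. From 0.5 to 1.5 µM the log2 difference was -0.04 ± 0.07 (adjusted p = 0.739, limma). Without 0.5 µM replicate 2 this difference turned to 0.06, with an adjusted p of 0.15, and STMN2 still rose at 0.5 µM by 1.68.

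STMN3 (ENSG00000197457.5), a second neuronal stathmin, which is anchored to Golgi membranes, had values within a narrow range. It measured 23859.6, 23465 and 23455 normalized counts in DMSO, 25755, 23947 and 25409.8 at 0.5 µM, and 25725, 23957 and 24499 at 1.5 µM. On this scale each JQ1 library was above each DMSO library, by little in replicate 2 of either dose. In FPKM the groups overlapped, with 162.99 to 166.71 in DMSO. There 0.5 µM replicate 2 held 162.61 FPKM and 1.5 µM replicate 2 held 160.02 FPKM. The log2 fold change was 0.09 ± 0.04 at 0.5 µM (adjusted p = 0.0589, limma) and 0.07 ± 0.04 at 1.5 µM (adjusted p = 0.121). These calls depend on single libraries. Without 0.5 µM replicate 2, STMN3 passed at 0.5 µM (0.117, adjusted p = 0.00283) and at 1.5 µM (adjusted p = 0.0297), and without 1.5 µM replicate 1 it passed at 0.5 µM (adjusted p = 0.0492). With a block for the replicate number the adjusted p at 0.5 µM was 0.0282. Under other settings the log2 fold change was as low as 0.0312 at 0.5 µM and 0.00781 at 1.5 µM. On the FPKM scale, which corrects for length, the ratio of STMN2 to STMN3 was 0.336 ± 0.00661 in DMSO, 1.17 ± 0.218 at 0.5 µM and 1.10 ± 0.0739 at 1.5 µM. STMN2 was thus the lower of the pair in every DMSO library and the higher in every JQ1 library.

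TUBB3 (ENSG00000258947.2), the class III beta-tubulin of neurons, nearly doubled in normalized count. It held 39783, 38424 and 39032 normalized counts in DMSO, 73413, 69533 and 73661 at 0.5 µM, and 77641, 74975 and 77367 at 1.5 µM. The libraries of a group lay close together, and no groups overlapped. For TUBB3 the log2 fold change was 0.89 ± 0.03 at 0.5 µM, or 1.85-fold (adjusted p = 5.27e-09, limma), and 0.97 ± 0.03 at 1.5 µM, or 1.96-fold (adjusted p = 1.44e-09). The 1.5 µM libraries were all above the 0.5 µM libraries, yet the difference of 0.09 did not pass (adjusted p = 0.106). A second identifier with the symbol TUBB3 (ENSG00000198211.8) was listed at no more than 0.16 FPKM.

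The rise of TUBB3 came with a shift among the beta-tubulins, whose isotypes share most of their sequence. In FPKM, TUBB3 made up 12.9% ± 0.136 (SD, n = 3) of all beta-tubulin in DMSO, 17.6% ± 0.447 at 0.5 µM and 18.3% ± 0.207 at 1.5 µM. Both doses differed from DMSO, by 4.69 and 5.37 percentage points, with an exact permutation p of 0.1 (two-sided, 3 against 3), which is the smallest p this design allows. The ubiquitous isotype TUBB took 48.3% in DMSO and 34.02% and 32.9% with JQ1, while its own level went from 1341 to 1245 and 1215 FPKM. TUBB2B, which is abundant in developing neurons, went from 422.08 to 788.86 and 808.91 FPKM, and TUBB4B from 489 to 767 and 782 FPKM. Summed beta-tubulin was 2778 ± 31.9 FPKM in DMSO, 3659 ± 25 at 0.5 µM and 3690.4 ± 36.4 at 1.5 µM. How near-identical isotypes such as TUBB2A and TUBB2B share reads was not tested, so their separate values are uncertain.

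**Figure D2:**
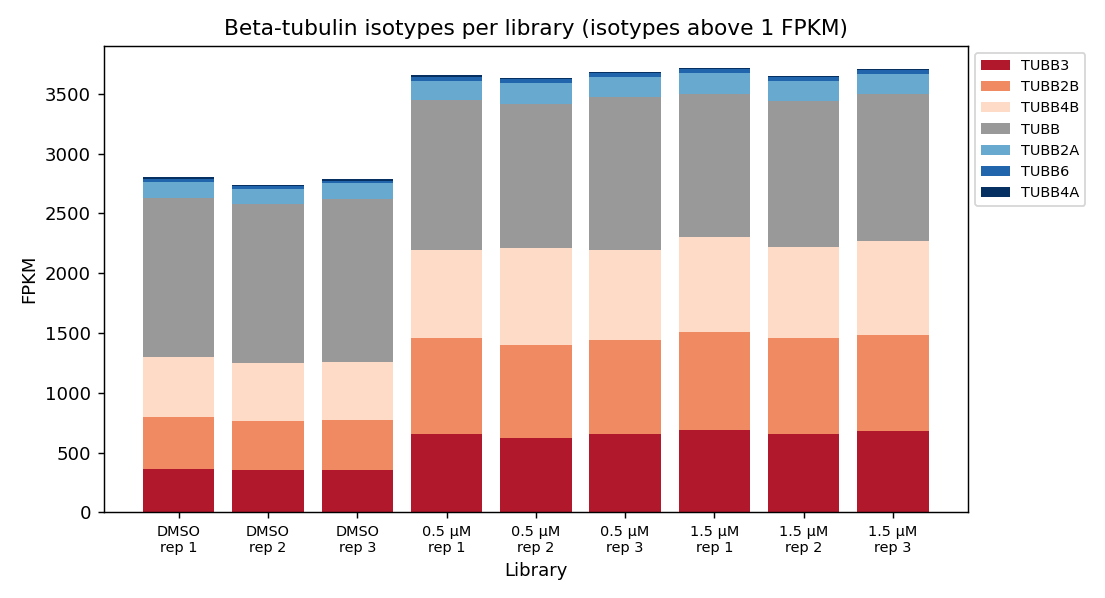
Stacked FPKM (vertical axis, from 0) of the beta-tubulin isotypes above 1 FPKM in each of the 9 libraries. The TUBB3 segment at the bottom makes up 12.9% of the beta-tubulin sum in DMSO, 17.6% at 0.5 µM and 18.3% at 1.5 µM (means of 3 libraries).

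MAP2 (ENSG00000078018.15), a microtubule-binding protein of dendrites and cell bodies, rose modestly. Its normalized counts were 60355, 64828 and 67921 in DMSO, 76734, 79178 and 79278 at 0.5 µM, and 77746, 83083 and 82096 at 1.5 µM. On this scale every JQ1 library exceeded every DMSO library, and the DMSO libraries were the more spread. For MAP2 the log2 fold change was 0.29 ± 0.04 at 0.5 µM, or 1.22-fold (adjusted p = 0.000192, limma), and 0.33 ± 0.04 at 1.5 µM, or 1.26-fold (adjusted p = 5.31e-05). On FPKM values the changes still passed but were smaller, 0.17 (adjusted p = 0.0337) and 0.16 (adjusted p = 0.0357), and DMSO replicate 3 at 225.6 FPKM then overlapped 1.5 µM replicate 1 at 224.34 FPKM.

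MAPT (ENSG00000186868.11), which encodes tau, the microtubule-associated protein of axons, fell slightly. It had 11193, 11027 and 11632 normalized counts in DMSO, 10482, 9211 and 10599 at 0.5 µM, and 9609, 9915 and 9886 at 1.5 µM. All JQ1 libraries lay below all DMSO libraries, with 0.5 µM replicate 2 the lowest. The log2 fold change was -0.16 ± 0.05 at 0.5 µM (adjusted p = 0.0144, limma) and -0.20 ± 0.05 at 1.5 µM (adjusted p = 0.004), which is a fall of 10.5% and of 13.1%. The call at 0.5 µM was lost without DMSO replicate 3 (-0.141, adjusted p = 0.0562). Without the 3 libraries with high H19 the change at 1.5 µM was -0.19 and its call was lost, but 1 library is then left at that dose. On FPKM values the changes were larger, -0.28 and -0.42. Several annotated transcripts overlap MAPT, among them the antisense MAPT-AS1 at no more than 0.42 FPKM.

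DCX (ENSG00000077279.12), the microtubule-bundling doublecortin of migrating immature neurons, fell more. Its normalized counts were 15401.5, 16579 and 18114 in DMSO, 12014, 10326.5 and 12129 at 0.5 µM, and 9048, 9858 and 9847 at 1.5 µM. The 3 groups did not overlap, in the order DMSO, 0.5 µM and 1.5 µM. The log2 fold change was -0.54 ± 0.07 at 0.5 µM, a fall of 31.2% (adjusted p = 6.58e-05, limma), and -0.80 ± 0.07 at 1.5 µM, a fall of 42.6% (adjusted p = 2.56e-06). Its relative DCLK1, also a doublecortin-domain protein, measured 25.06, 26.55 and 26.69 FPKM in the 3 groups. On the FPKM scale the ratio of MAP2 to DCX went from 7.42 ± 0.159 in DMSO to 12.4 ± 1.64 and 14.9 ± 0.176, and that of MAP2 to MAPT from 3.53 ± 0.193 to 4.81 ± 0.155 and 5.29 ± 0.131.

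INA (ENSG00000148798.5), alpha-internexin, an intermediate filament protein that appears early in developing neurons, more than doubled in normalized count. It measured 18626, 18655 and 19096 normalized counts in DMSO, then 40137.5, 43969.7 and 40232 at 0.5 µM, and 44343, 45413 and 46992 at 1.5 µM. No groups overlapped, and the lowest 1.5 µM library was just above the highest 0.5 µM library. For INA the log2 fold change was 1.14 ± 0.04 at 0.5 µM, or 2.21-fold (adjusted p = 4.13e-09, limma), and 1.28 ± 0.04 at 1.5 µM, or 2.43-fold (adjusted p = 9.73e-10). The INA promoter printed above is thus that of a gene with a large rise.

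Of the neurofilament subunits that partner INA in mature axons, NEFL and NEFM were nearly undetected. NEFL, the light subunit, was listed at 0 FPKM in all 9 libraries. NEFM, the medium subunit, was listed at 0.01 FPKM in DMSO replicate 1, 0.5 µM replicate 3 and 1.5 µM replicate 2, and at 0 in the others. The FPKM values are rounded to 2 decimals and carry no read counts for these genes, so no fold change is given. Summed over NEFL, NEFM and INA the level was 89.2 ± 1.06 FPKM in DMSO, 191 ± 9.95 at 0.5 µM and 207 ± 5.05 at 1.5 µM. INA accounted for all but at most 0.01 FPKM of it in any library. The differences from DMSO of 102 and 118 FPKM had an exact permutation p of 0.1 (two-sided, 3 against 3), the smallest this design allows. The heavy subunit NEFH measured 6.53, 6.23 and 6.58 FPKM in the 3 groups and did not pass the test at either dose. Peripherin (PRPH), the intermediate filament of peripheral neurons, measured 232.67, 352.52 and 295.62 FPKM, and the ratio of INA to PRPH in FPKM was 0.384 ± 0.0138 in DMSO, 0.542 ± 0.0324 at 0.5 µM and 0.703 ± 0.0379 at 1.5 µM.

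GAP43 (ENSG00000172020.8), the growth-cone phosphoprotein that binds calmodulin, fell at both doses. It held 11786, 11716 and 11279.5 normalized counts in DMSO, 8397, 9005 and 8037 at 0.5 µM, and 6670.4, 6596 and 6753 at 1.5 µM. The 3 groups were separate, and the 1.5 µM libraries lay within a narrow band. The log2 fold change was -0.45 ± 0.04 at 0.5 µM, a fall of 26.9% (adjusted p = 3.29e-06, limma), and -0.80 ± 0.04 at 1.5 µM, a fall of 42.4% (adjusted p = 3.14e-08). STMN2 and GAP43, both used as markers of growing axons, thus moved in opposite directions. Their ratio in FPKM, STMN2 to GAP43, was 0.4995 ± 0.0176 in DMSO, 2.495 ± 0.246 at 0.5 µM and 2.98 ± 0.133 at 1.5 µM. The GAP43 window printed above has the lowest GC content of the 3 shown. Windows of MAP2, which rose, had 37.6, 44.4 and 51.2%, and those of TUBB3, which also rose, 65.6 and 78%. Windows of DCX, which fell, had 42, 42.8 and 44%. A link between GC content and the response was not tested.

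**Figure D3:**
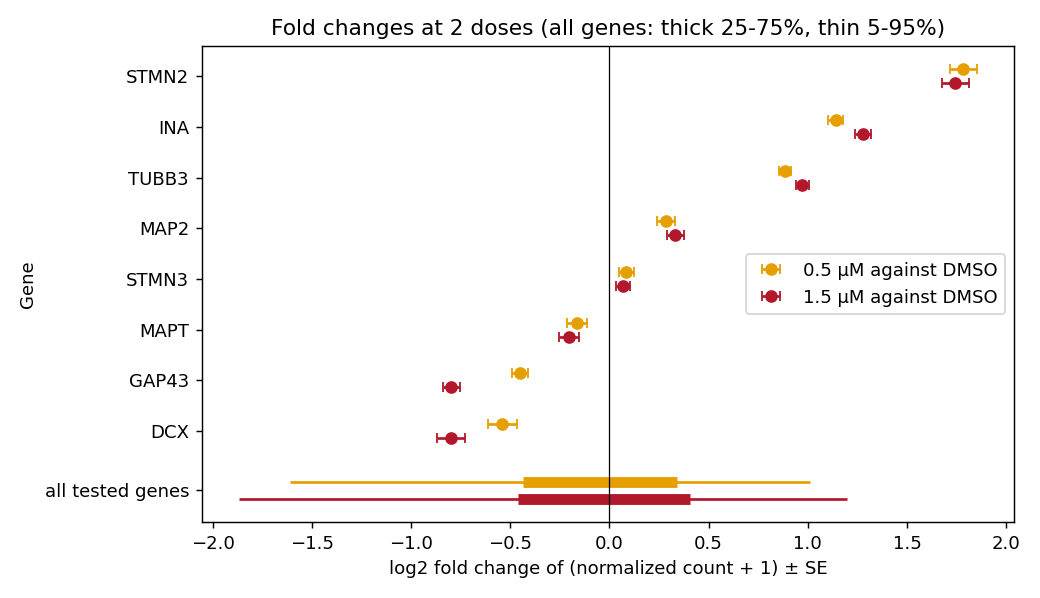
Log2 fold changes against DMSO (horizontal axis, of normalized count + 1) of the 8 tested genes at 0.5 and 1.5 µM, with SE as error bars, beside the spread of all 17514 genes tested (thick bars 25 to 75%, thin lines 5 to 95%). STMN2 lies beyond the 95% point of all genes at both doses, and STMN3, MAPT and MAP2 lie within the middle range of all genes.

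Set against all genes, the sizes spanned a wide range. The middle 50% of all genes had log2 fold changes between -0.44 and 0.34 at 0.5 µM and between -0.46 and 0.41 at 1.5 µM, and 90% lay between -1.61 and 1.01 and between -1.87 and 1.2. STMN2 exceeded the upper end of the wider range at both doses, and so did INA. TUBB3 was above the middle range but within the wider one, GAP43 and DCX were below the middle range, and MAP2, MAPT and STMN3 were inside it.

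Between the doses 1 gene rose from 0.5 to 1.5 µM (INA), 2 fell (GAP43 and DCX) and 5 did not pass. Over all genes 12.7% were called in this comparison, 4.66% as higher and 8.09% as lower. Groups did not overlap for 4 of the 8 genes (TUBB3, GAP43, DCX and INA), against 33.7% of all genes. GAP43 fell by 0.34 ± 0.04 on the log2 scale, or by 21.3% (adjusted p = 0.000859, limma). It passed under 21 of 22 other settings, the exception being the fit without the 3 libraries with high H19 (-0.365, adjusted p = 0.0785), which leaves 1 library at 1.5 µM, assumed to vary like the others.

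The other dose calls were less stable. DCX fell by 0.26 ± 0.07 (adjusted p = 0.0437, limma) and passed under 12 of 22 settings. Without DMSO replicate 2 its adjusted p was 0.0735, without 0.5 µM replicates 1 or 3 it was 0.109 and 0.0957, and without 1.5 µM replicates 1, 2 or 3 it was 0.142, 0.0962 and 0.0948. INA rose by 0.14 ± 0.04 (adjusted p = 0.0467) and passed under 7 of 22 settings, with adjusted p-values from 0.0661 to 0.172 when any 1 library other than 0.5 µM replicate 2 was left out. With a block for the replicate number the adjusted p of INA was 0.0534. MAPT passed only without 0.5 µM replicate 2 (-0.105, adjusted p = 0.0239) and TUBB3 only with DESeq2 (0.0864, adjusted p = 0.0484). Of all genes called between the doses 36.5% were higher, against 19.5% on FPKM values, 24.1% without 1.5 µM replicate 2, 24.3% without 1.5 µM replicate 3 and 0% without the 3 libraries with high H19.

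Levels of different genes can be compared only per length, in FPKM. In DMSO the order of mean levels was TUBB3 at 358.6 ± 6.95 FPKM (SD, n = 3), MAP2 at 210.7 ± 16.2, STMN3 at 164.3 ± 2.06, GAP43 at 110.6 ± 2.85, INA at 89.17 ± 1.07, MAPT at 59.64 ± 1.56, STMN2 at 55.22 ± 0.498 and DCX at 28.42 ± 2.46. No neighbours in this order overlapped. At 0.5 µM the order was TUBB3 at 643.8 ± 19.6, MAP2 at 236.4 ± 7.84, STMN2 at 197.3 ± 28.9, INA at 191.1 ± 9.95, STMN3 at 169.8 ± 6.37, GAP43 at 78.89 ± 4.74, MAPT at 49.12 ± 0.782 and DCX at 19.23 ± 2.02. Here STMN2 overlapped both MAP2 and INA. At 1.5 µM the levels were TUBB3 674.4 ± 14.1, MAP2 235.6 ± 9.97, INA 207.4 ± 5.05, STMN2 182.2 ± 6.2, STMN3 165.3 ± 6.71, GAP43 61.16 ± 0.644, MAPT 44.55 ± 2.29 and DCX 15.81 ± 0.849, with no overlap between neighbours. STMN2 moved from the 7th place in DMSO to the 3rd and 4th with JQ1, while TUBB3 stayed first and DCX last of the 8.

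**Figure D4:**
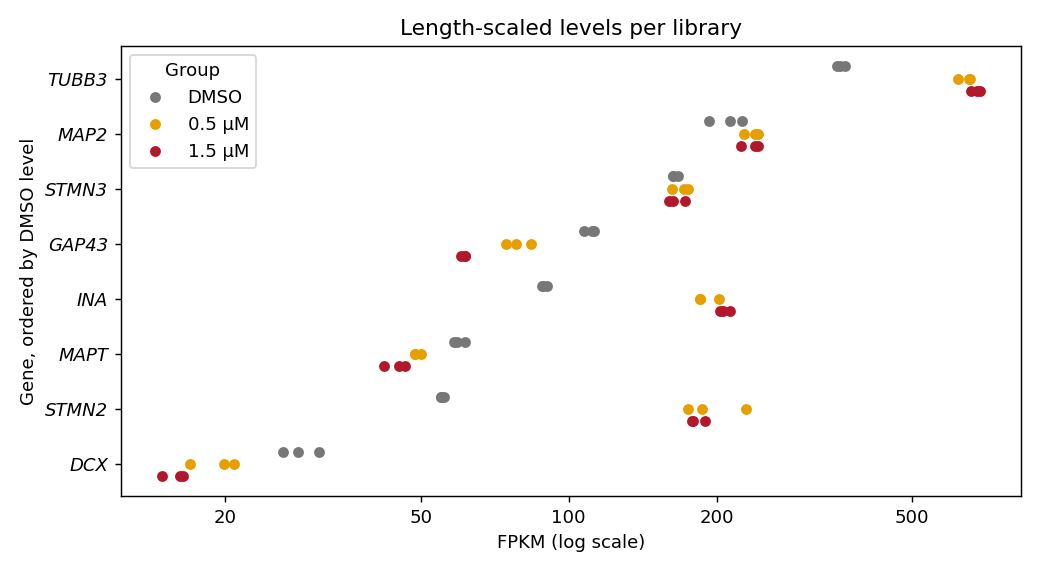
FPKM (horizontal axis, log scale) of the 8 genes in each of the 9 libraries, ordered from top to bottom by the mean in DMSO. INA and STMN2 lie far to the right of their DMSO values in both JQ1 groups, and GAP43, MAPT and DCX to the left.

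Together the 8 genes took 2729 to 2849 RPM (reads scaled to library size) in DMSO, 3758 to 3784 at 0.5 µM and 3785 to 3839.8 at 1.5 µM. Counting error was small for all of them, with 5736 reads behind the lowest value (STMN2 in DMSO replicate 1) and 93622 behind the highest (MAP2 in 1.5 µM replicate 2).

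Over the 9 libraries, the genes with the most similar pattern were looked up among 14227 genes by Pearson's r of log2 normalized counts. The points share the group differences and the libraries, so r values are a description. STMN2 was closest to INSM2 (r = 0.9989), a zinc-finger factor related to the neuroendocrine factor INSM1, and to ELMO2 (0.9981). TUBB3 was closest to GSN (0.9997), which encodes the actin-severing protein gelsolin, and to CARHSP1 (0.9994), and INA to RABIF (0.9995) and TULP3 (0.9995). MAP2 was closest to CEP95 (0.996) and CHD6 (0.9955), MAPT to C15orf39 (0.986) and TRAK1 (0.9841), GAP43 to FAM204A (0.9982) and ESRP1 (0.9972), and DCX to KIAA1324 (0.9958) and PLXND1 (0.9952). The lowest of these best matches was that of MAPT.

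Other genes of the cytoskeleton were described in 8 lists, by counts beside the share of all genes called given above. Among 18 tested stathmins and tubulins, 8 were higher and 5 lower at 0.5 µM, and 8 higher and 7 lower at 1.5 µM. Their median log2 fold change was 0.08 and 0.02, the second turning to -0.007 on FPKM values and to -0.03 with upper-quartile scaling. The alpha-tubulin TUBA8 fell from 394 to 85.8 and 63.7 normalized counts (log2 fold change -2.61 ± 0.20 at 1.5 µM), and TUBA4A fell by 0.96 ± 0.03. TUBB2B rose by 1.00 ± 0.03 and TUBB4B by 0.74 ± 0.04. STMN1, the ubiquitous stathmin, measured 1223 ± 25.9, 1518 ± 244 and 1388 ± 22.2 FPKM (SD, n = 3). The higher mean at 0.5 µM rests on replicate 2, as the 3 libraries held 1399, 1798 and 1356 FPKM.

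Among 41 other microtubule-associated and severing proteins, 24 were higher and 9 lower at 0.5 µM, and 26 and 10 at 1.5 µM, with medians of 0.20 and 0.23. DCLK2, a doublecortin-like kinase, rose from 37.0 to 173 and 215 normalized counts (log2 fold change 2.51 ± 0.13 at 1.5 µM), whereas DCLK3 fell by 1.72 ± 0.08. TPPP, a microtubule-bundling protein known from oligodendrocytes, rose from 3218.5 to 7043 and 8027 normalized counts, and MAP7D3 fell by 1.19 ± 0.05. Within the doublecortin family the named members thus went in different directions. Among 25 tubulin-modifying enzymes and tubulin cofactors, 15 were higher and 1 lower at 0.5 µM, and 14 and 2 at 1.5 µM, with medians of 0.28 and 0.30. On FPKM values 10 were higher and 2 lower at either dose. TTLL1, a tubulin polyglutamylase, rose from 248 to 762 and 833 normalized counts, and AGTPBP1, which removes glutamates from tubulin, rose by 0.86 ± 0.03. VASH1, a tubulin detyrosinase, rose by 1.38 ± 0.05, and AGBL3 by 0.97 ± 0.16.

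Intermediate filament genes other than INA mostly fell. Their list also held DST and PLEC, which encode linker proteins rather than filaments. Of 18 tested, 3 were higher and 12 lower at 0.5 µM, and 5 and 12 at 1.5 µM, with medians of -0.30 and -0.33. KRT19, a keratin of simple epithelia, fell from 14324 to 4995 and 3881 normalized counts, KRT7 fell by 1.79 ± 0.11 at 1.5 µM, and DES, the filament of muscle, by 1.57 ± 0.17. SYNM, which encodes synemin, rose from 1499.7 to 3912 and 4631 normalized counts. PRPH, with the FPKM values given above, also passed as higher at both doses. Vimentin (VIM) measured 10.36, 4.92 and 5.26 FPKM, and nestin (NES), the filament of neural progenitors, 4.02, 2.29 and 2.65 FPKM.

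Of 24 growth-cone, collapsin response mediator and actin genes, 13 were higher and 8 lower at 0.5 µM, and 12 and 9 at 1.5 µM, with medians of 0.11 and 0.14. The list held other calmodulin-binding partners of the GAP43 kind. NRGN, neurogranin, rose from 62.3 to 376 and 438 normalized counts (log2 fold change 2.81 ± 0.13 at 1.5 µM), and PCP4 fell by 1.46 ± 0.05. ABLIM1, an actin-binding protein, fell by 1.41 ± 0.06. BASP1, a growth-cone protein with a role like that of GAP43, was named after its values were seen. It had log2 fold changes of 0.51 and 0.43.

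Of 28 spectrins, ankyrins and motor genes, 18 were higher and 6 lower at 0.5 µM, and 19 and 7 at 1.5 µM, with medians of 0.22 and 0.23. On FPKM values 11 were higher and 5 lower at 0.5 µM, and 12 and 7 at 1.5 µM. SPTAN1, the alpha-spectrin of the axonal membrane skeleton, rose from 39419 to 66787 and 85070 normalized counts, whereas SPTBN4, a beta-spectrin of axon initial segments, fell by 1.10 ± 0.04 and ANK1 by 1.34 ± 0.06. KIF21B, a kinesin, rose by 1.16 ± 0.04. Of 28 kinases and phosphatases that act on these proteins, 14 were higher and 6 lower at 0.5 µM, and 14 and 8 at 1.5 µM, with medians of 0.13 and 0.18. PRKCA, a protein kinase C, of the family that phosphorylates GAP43, rose by 1.34 ± 0.05, and TTBK2, a tau-tubulin kinase, by 1.14 ± 0.07. BRSK1, a kinase of neuronal polarity, fell by 1.67 ± 0.03, and MAPK10, the neuronal member of the JNK family, which phosphorylates stathmins and doublecortin, by 1.43 ± 0.05.

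**Figure D5:**
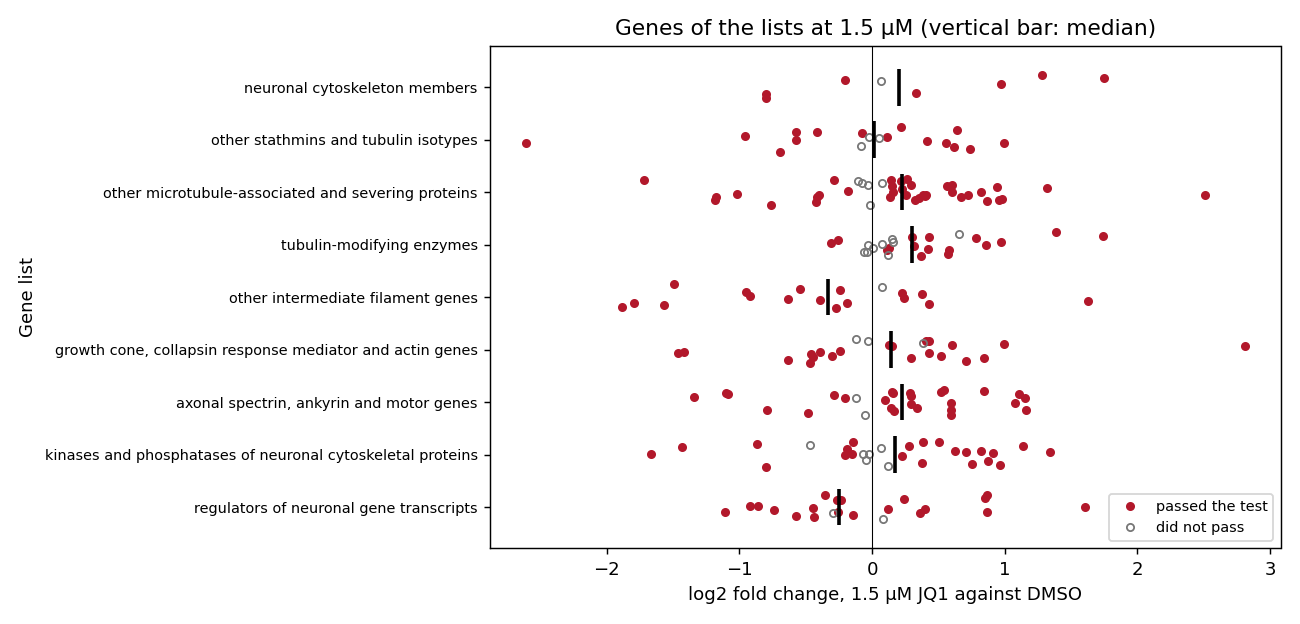
Log2 fold changes at 1.5 µM against DMSO (horizontal axis) of every tested gene of the 10-gene set and the 8 other lists, with filled points for genes past the test, open points for the others and a vertical bar at the median. Medians range from -0.33 for the other intermediate filament genes to 0.30 for the tubulin-modifying enzymes.

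The last list held regulators of neuronal transcripts. Of 22 tested, 8 were higher and 11 lower at 0.5 µM, and 8 and 12 at 1.5 µM, with medians of -0.18 and -0.25. REST, the repressor that silences neuronal genes outside neurons, was low. It held 25.3, 36.5 and 17.9 normalized counts in DMSO, 43.6, 51.7 and 67.6 at 0.5 µM, and 94.8, 80.8 and 65.7 at 1.5 µM. Its log2 fold change was 1.04 at 0.5 µM (adjusted p = 0.00706, limma) and 1.60 ± 0.28 at 1.5 µM (adjusted p = 0.000389), and the first was lost without the 3 libraries with high H19 (adjusted p = 0.056). SRRM4, a splicing factor of neuronal microexons, rose by 0.87 ± 0.05. ELAVL4, which encodes the RNA-binding protein HuD known to bind the GAP43 and tau messages, fell from 4403 to 3009 and 2322 normalized counts, and RBFOX1, a neuronal splicing factor, fell by 1.11 ± 0.06. TARDBP, whose product TDP-43 is known to guard the splicing of STMN2, had log2 fold changes of 0.08 at either dose and did not pass. NEUROD1, the subtype's defining factor, had log2 fold changes of 0.44 at 0.5 µM and 0.48 at 1.5 µM.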

How the data were processed

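Per the labels' protocols, RNA came from an RNeasy kit and libraries from a stranded TruSeq total RNA kit. Per the submitters' processing notes, cutadapt, STAR, RSEM and hg19 were used; the sources used here give neither versions nor the strand setting. The authors deposited a normalized signal (gene counts divided by a DESeq2 size factor, with 100% of values recovered as whole reads within 0.001) for 17518 genes, and RSEM FPKM, rounded to 2 decimals, for 57820 genes.

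Tests used limma 3.58.1 with trend on log2(normalized count + 1), all 9 libraries, for 17514 genes with at least 10 in at least 3 libraries, two-sided, adjusted by Benjamini-Hochberg. This scale understates changes of low genes, and no spike-in was used. Same-numbered libraries did not deviate together (r from -0.385 to 0.131), so no block entered the test. Some libraries with different numbers did. For 0.5 µM replicate 3, r was 0.253 and 0.226 with 1.5 µM replicates 1 and 2, which share its high H19. For 1.5 µM replicate 3, r was 0.152 and 0.227 with 0.5 µM replicates 1 and 2. No term for this grouping entered the test. Genes, lists and the setting that leaves out 3 libraries were chosen with earlier results of these data known. Named were all 10 genes, and per list up to 4 genes with the largest changes at 1.5 µM, a mean of at least 50 and no overlap, plus HEXIM1, NEUROD1 and REST. Of these, 1 gene is not reported here. Genes named for comparison within a family (such as DCLK1, STMN1 and TARDBP) were added for their role after values were seen. Similar genes had a mean of at least 100. The tests were tried on simulated data. Alternatives were edgeR 4.0.16, DESeq2 1.42.0, FPKM (log2 of the value + 0.1, at least 0.5), other scalings, filters and pseudocounts, leaving out each library in turn, and a replicate block.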

Additional observations from a re-analysis of the deposited data

How the results depend on the processing

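Under the 22 alternatives the 8 tested genes gave 4 to 5 higher and 2 to 3 lower at either dose, and no call against DMSO changed sign. STMN3 passed at 0.5 µM under 4 of them (with DESeq2, adjusted p 0.0441) and at 1.5 µM under 2 (with only the 6 libraries compared, 0.0375). The beta-tubulin shares and neurofilament sums kept their direction under all 7 alternatives, but most of these could not have changed it. Rescaling a library leaves a share as it is. Leaving out 1 library cannot turn a difference between groups that do not overlap. Only the rescaled neurofilament sums could have turned.

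Between the doses, 1 gene was higher, but 0 were with FPKM values, TMM scaling, limma without trend, edgeR, only the 6 libraries compared, the replicate block and without the 3 libraries with high H19, and 2 with DESeq2; leaving out 1 library gave 0 to 1. The 2 lower genes became 1 with FPKM values, limma without trend and only the 6 libraries, and 0 without the 3 libraries; leaving out 1 library gave 1 to 3. All genes called numbered 2233, with FPKM values 892, with only the 6 libraries 1155, without the 3 libraries 90, and 995 to 3217 with 1 library left out. The cause was not tested, beyond fewer libraries where these were left out. Where 0 genes were higher, 1 to 2 were so at an unadjusted p under 0.05, and where 0 were lower, 1 was. With the replicate block 2030 genes were called between the doses, and only STMN3 at 0.5 µM and INA between the doses changed their call among the 8 genes.

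No reversed value was called: between the doses STMN2 ranged from -0.0942 to 0.061 with 1 library left out (positive without 0.5 µM replicate 2), STMN3 from -0.0497 to 0.00458 (positive without 0.5 µM replicate 1, at 0.00282, or 1.5 µM replicate 2), MAP2 -0.00512 on FPKM values, and MAPT 0.00881 without the 3 libraries. Depth did not limit the 8 genes. NEFL and NEFM have no counts to test.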
